A study of Mus musculus with 14 samples.

Results

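The genes described here are the synaptic vesicle and neurotransmitter release machinery of mouse brain, followed at the level of RNA and of N6-methyladenosine (m6A), a methyl mark on adenosines in mRNA. Members were every row of the deposited gene table whose symbol belongs to the synapsins (Syn), synaptophysin (Syp), SV2 proteins, VAMPs, syntaxins (Stx), Snap25, synaptotagmins (Syt), complexins (Cplx), RIMs (Rims) or Munc13 proteins (Unc13). This gave 59 of 31507 genes, and 50 of them passed the filter on low values (a mean of at least 1 FPKM, fragments scaled to transcript length and library size, over 7 input libraries). The 9 members under that filter were Syn3, Vamp5, Vamp9, Stx11, Stx19, Syt8, Syt15, Cplx4 and Unc13d.

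Brain tissue came from mice with an intracerebral haemorrhage (ICH), labelled autologous blood, that were given acupuncture at the GV20 point for 7 days (acupuncture, 2 input and 2 IP libraries), from mice with the haemorrhage and no acupuncture (ICH, 2 input and 2 IP libraries), and from sham-operated mice (sham, 3 input and 3 IP libraries). An IP library holds RNA fragments pulled down with an antibody against m6A, and an input library holds the poly(A) RNA before the pull-down. The labels give no strain, sex, age, brain region or side, and nothing in them ties replicates to different animals, so each p reflects the spread of these samples, which may be technical. In bulk tissue, fewer cells of a type and less RNA per cell cannot be told apart.

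Release of neurotransmitter depends on a SNARE complex in which a VAMP on the vesicle zips together with a syntaxin and Snap25 on the target membrane. RIM and Munc13 proteins tether and prime vesicles at the active zone, and complexins clamp and assist the assembled SNAREs. Some synaptotagmins, such as Syt1, sense calcium and trigger fusion, and not every member of that family does so. Several relatives in the same families, among them Vamp3, Vamp8, Stx2 and Stx11, serve endosomal traffic and granule secretion in many cells outside synapses, immune cells included.

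Promoter windows of 3 members are shown because these genes had the largest fold changes between acupuncture and sham, Vamp8 upward and Unc13c and Syt9 downward. Each run holds the 250 bases before the RefSeq transcript start (RefSeq, GRCm38.p6), 5′ to 3′ on the gene's strand, and capitals mark GC boxes (GGGCGG or its reverse complement CCGCCC).
Vamp8, chr6:72390668-72390917, minus strand: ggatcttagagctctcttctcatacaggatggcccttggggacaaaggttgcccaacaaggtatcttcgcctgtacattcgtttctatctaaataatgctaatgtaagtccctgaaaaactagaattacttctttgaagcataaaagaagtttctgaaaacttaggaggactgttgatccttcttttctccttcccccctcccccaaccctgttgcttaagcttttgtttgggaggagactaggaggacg
Unc13c, chr9:73969038-73969287, minus strand: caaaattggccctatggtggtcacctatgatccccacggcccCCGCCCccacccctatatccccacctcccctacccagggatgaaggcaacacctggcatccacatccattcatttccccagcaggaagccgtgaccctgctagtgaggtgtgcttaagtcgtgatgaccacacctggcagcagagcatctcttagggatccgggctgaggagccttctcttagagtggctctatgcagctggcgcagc
Syt9, chr7:107370540-107370789, plus strand: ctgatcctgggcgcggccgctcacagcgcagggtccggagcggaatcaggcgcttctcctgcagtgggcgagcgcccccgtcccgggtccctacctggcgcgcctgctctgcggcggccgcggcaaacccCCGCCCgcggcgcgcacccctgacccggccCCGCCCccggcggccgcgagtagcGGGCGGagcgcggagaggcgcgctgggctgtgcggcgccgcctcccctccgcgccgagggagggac
The window of Vamp8 had no GC box and a GC content of 43.6%, that of Unc13c had 1 GC box at 58.8%, and that of Syt9 had 3 GC boxes at 80.4%. The promoter table held 59 windows for 44 of the 59 members, and 59.3% of these windows had a GC box on either strand, beside 32.7% of all 32851 windows in the table. The median GC content was 59.2% in members' windows and 52.4% in all windows. A cyclic AMP response element (TGACGTCA) was found in 1.69% of members' windows, that of Syn1 alone, and in 1.55% of all windows. A TATA box (TATAAA, either strand) was found in 6.78% of members' windows, which belonged to Stx2, Stx3 and Sv2b, and in 12.4% of all windows. A match describes the letters of the window and no binding of a factor.

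The summed RNA level of the 59 members was 2200 and 2124 FPKM in acupuncture, 2281 and 2637 FPKM in ICH, and 2362, 2550 and 2349 FPKM in sham. Read depth is unknown, because only FPKM was given. Markers of neurons were present at high levels, as 13 pan-neuronal genes summed to 1210 and 1090 FPKM in acupuncture, 1120 and 1150 FPKM in ICH, and 1230 to 1270 FPKM in sham, and 0 of the 13 passed the test (limma) in any comparison, with 3 or 4 of the 13 at an unadjusted p under 0.05 in each. Markers of other cells differed between groups. The 12 microglia and macrophage markers summed to 713 and 684 FPKM in acupuncture, 604 and 521 FPKM in ICH, and 116 to 140 FPKM in sham. The 9 markers of striatal projection neurons summed to 198 and 150 FPKM in acupuncture, 246 and 201 FPKM in ICH, and 456 to 494 FPKM in sham. The 6 thalamic markers summed to 14.0 and 12.5 FPKM in acupuncture, 29.0 and 25.6 FPKM in ICH, and 33.6 to 51.0 FPKM in sham. No marker of these lists was at 0 in all 7 libraries. ICH replicate 2 stood apart from ICH replicate 1: over the 50 tested members the median absolute log2 difference between them was 0.252, and 13 members differed by over 0.5, 5 of them higher and 8 lower in replicate 2. The same median was 0.098 between the acupuncture libraries and 0.065 to 0.103 between sham libraries, and over all 13666 tested genes it was 0.266 for ICH. Between the acupuncture libraries 4 members differed by over 0.5. Syt10 (0.699 and 3.17 FPKM) and Syt6 (3.54 and 8.78 FPKM) were higher in replicate 2, and Syt2 and Unc13c lower. The 6 choroid plexus markers summed to 344 and 17.1 FPKM in acupuncture, 337 and 353 in ICH, and 453 to 488 FPKM in sham. The 6 oligodendrocyte markers summed to 738 and 473 FPKM in acupuncture, 778 and 737 in ICH, and 952 to 1220 FPKM in sham. What set the acupuncture libraries apart was not tested.

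**Figure D1:**
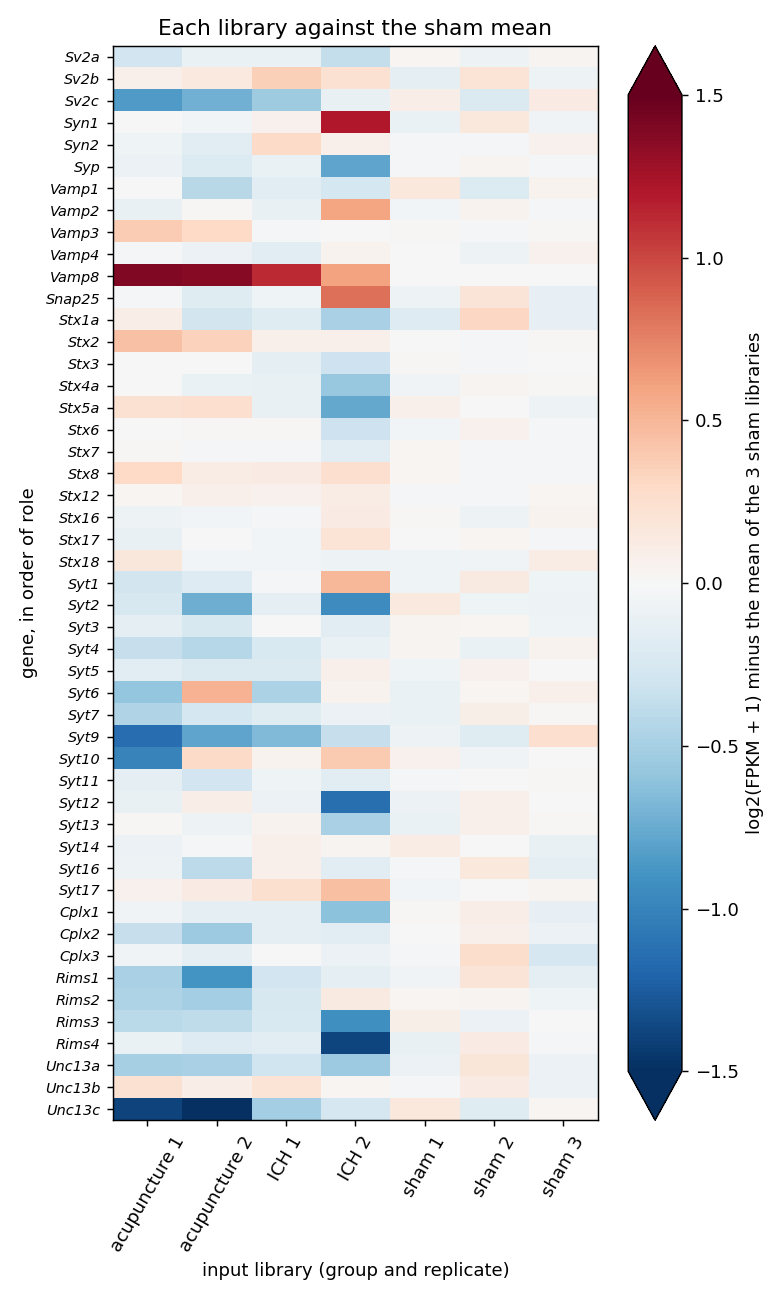
Each row is 1 of 49 tested release machinery genes and each column 1 input library, and the colour gives log2(FPKM + 1) minus the mean of the 3 sham libraries. ICH replicate 2 differs from ICH replicate 1 in Syn1, Snap25, Vamp2, Syp, Syt12 and Rims4, while Vamp8 is high and Unc13c low in both acupuncture libraries.

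Acupuncture against sham set the treated haemorrhagic brain beside the sham-operated one, and 7 of the 50 tested members differed past the threshold. Vamp8, Stx2 and Vamp3, SNAREs found in many cell types, rose by log2 fold changes of 1.37, 0.39 and 0.34. Unc13c, Syt9, Sv2c and Rims1, a priming factor, a calcium sensor, a vesicle protein and an active zone scaffold, fell by 1.70, 0.97, 0.79 and 0.69 on the log2 scale. Tests were made with limma on log2(FPKM + 1), a scale that understates changes of low genes, and a gene passed at an adjusted p under 0.05 (Benjamini-Hochberg over 13666 genes). The 3 higher members of 50 stand beside 8.47% of all genes called higher, and the 4 lower members beside 3.22% called lower. Of the 50 members 12 lay above 0 and 38 below, with a median log2 fold change of -0.10, against 0.04 over all genes tested. Of the 13 pan-neuronal markers 10 also lay below 0 and 3 above, with a median of -0.30, and 6 were lower without overlap of the groups, and their part in the members' balance was not tested. The groups did not overlap for 7 members on the higher and 19 on the lower side, beside 31.8% and 23.4% of all genes.

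Vamp8 (ENSMUSG00000050732; GRCm38 chromosome 6, 72385223 to 72390703, minus strand) encodes a VAMP of endosomes and secretory granules. Its level was 8.12 and 7.98 FPKM in acupuncture, 6.58 and 4.30 FPKM in ICH, and 2.52, 2.46 and 2.49 FPKM in sham. All 4 libraries with a haemorrhage lay above all sham libraries, and both acupuncture libraries lay above both ICH libraries. The log2 fold change of acupuncture over sham was 1.37 (SE 0.15, limma adjusted p = 0.00171), and that of ICH over sham was 0.86 (SE 0.15, limma adjusted p = 0.0203). The first of these calls held without any 1 of the 7 libraries, with limma adjusted p between 0.000133 and 0.0204. The call of ICH over sham was lost without sham replicate 1 (limma adjusted p = 0.0823), sham replicate 2 (0.0764) or sham replicate 3 (0.079). The summed microglia and macrophage markers moved in the same direction as Vamp8, but single markers did not all do so. Of 11 tested markers 10 were called higher and 1 lower by limma in acupuncture against sham. In acupuncture against ICH 7 lay above 0 and 4 below, and in ICH against sham all 11 lay above 0. The part of these markers in the level of Vamp8 was not tested.

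Stx2 (ENSMUSG00000029428; chromosome 5, 128984557 to 129008574), a plasma membrane syntaxin, had 4.30 and 3.96 FPKM in acupuncture, 3.11 and 3.13 FPKM in ICH, and 2.90, 2.88 and 2.97 FPKM in sham. Vamp3 (ENSMUSG00000028955; chromosome 4, 151047300 to 151057963), the cellubrevin of recycling endosomes, had 11.4 and 10.7 FPKM in acupuncture, 8.40 and 8.47 FPKM in ICH, and 8.60, 8.31 and 8.60 FPKM in sham. Both genes were higher in both acupuncture libraries than in any of the other 5. The log2 fold change of acupuncture over sham was 0.39 (SE 0.09, limma adjusted p = 0.0303) for Stx2 and 0.34 (SE 0.08, limma adjusted p = 0.0401) for Vamp3. Both calls were lost without either acupuncture library or any 1 of the sham libraries, with limma adjusted p up to 0.183 for Stx2 and 0.227 for Vamp3. Vamp3 lies within Camta1 on the same strand, so its reads may be shared with that gene and its level is uncertain. Camta1 had 12.6 and 14.6 FPKM in acupuncture, 15.9 and 24.9 FPKM in ICH, and 14.2 to 16.4 FPKM in sham.

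Unc13c (ENSMUSG00000062151; chromosome 9, 73479422 to 73968966), the Munc13 isoform known for its expression in cerebellum, had 2.40 and 1.23 FPKM in acupuncture, 5.26 and 6.49 FPKM in ICH, and 8.93, 6.88 and 8.11 FPKM in sham. The 3 groups did not overlap, with acupuncture lowest and sham highest. The log2 fold change of acupuncture over sham was -1.70 (SE 0.20, limma adjusted p = 0.00235), and the call held without any 1 of the 7 libraries, with limma adjusted p up to 0.0135. The 6 cerebellar granule cell markers summed to 11.0 and 20.4 FPKM in acupuncture, 14.7 and 22.9 FPKM in ICH, and 26.0, 19.2 and 26.1 FPKM in sham, and their part in the level of Unc13c was not tested.

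Syt9 (ENSMUSG00000062542; chromosome 7, 107370728 to 107548656), a fast calcium sensor like Syt1 and Syt2, had 1.64 and 2.36 FPKM in acupuncture, 2.68 and 3.60 FPKM in ICH, and 4.51, 4.15 and 5.97 FPKM in sham. Sv2c (ENSMUSG00000051111; chromosome 13, 95954594 to 96132577), the SV2 isoform known for its expression in basal ganglia, had 4.41 and 4.92 FPKM in acupuncture, 5.73 and 8.07 FPKM in ICH, and 9.49, 7.39 and 9.61 FPKM in sham. Rims1 (ENSMUSG00000041670; chromosome 1, 22286251 to 22805994), which organises the active zone, had 16.1 and 11.9 FPKM in acupuncture, 18.6 and 20.6 FPKM in ICH, and 22.0, 26.4 and 20.9 FPKM in sham. In each of the 3 genes both acupuncture libraries lay below the other 5. For Syt9 the log2 fold change of acupuncture over sham was -0.97 (SE 0.18, limma adjusted p = 0.0165). It was -0.79 for Sv2c (SE 0.16, limma adjusted p = 0.0248) and -0.69 for Rims1 (SE 0.16, limma adjusted p = 0.0342). The call of Syt9 was lost without acupuncture replicate 1 (limma adjusted p = 0.123) or sham replicate 1 (0.0522). That of Sv2c was lost without acupuncture replicate 1 (0.161), acupuncture replicate 2 (0.105), sham replicate 1 (0.0951) or sham replicate 3 (0.093), all limma adjusted p. That of Rims1 was lost without acupuncture replicate 2 (0.198), sham replicate 1 (0.098), sham replicate 2 (0.0975) or sham replicate 3 (0.0724), all limma adjusted p. Sv2c overlaps the gene Gm20075 on the same strand over 2161 bp, so its level is uncertain. All 9 striatal markers and all 6 thalamic markers also lay below 0 in this comparison, with 9 and 4 of them past the threshold. Their part in these falls was not tested.

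**Figure D2:**
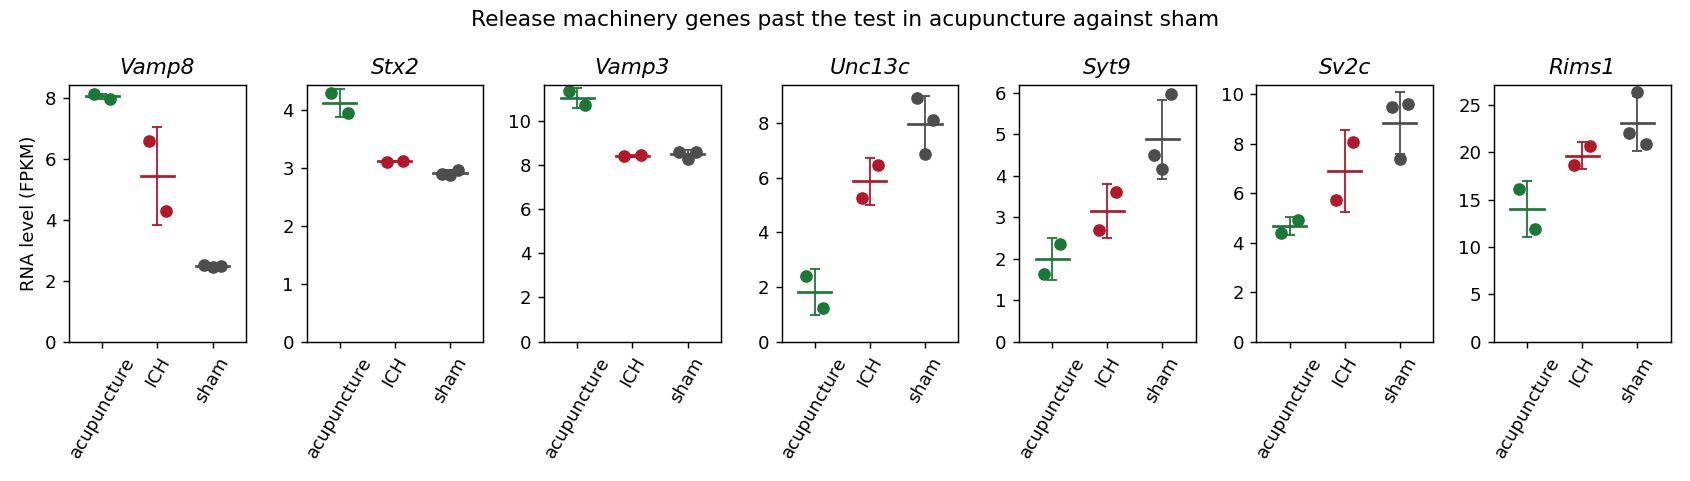
RNA level in FPKM of the 7 members past the limma threshold in acupuncture against sham, 1 point per input library (2 acupuncture, 2 ICH, 3 sham), with bars at the mean ± SD. Vamp8, Stx2 and Vamp3 are higher, and Unc13c, Syt9, Sv2c and Rims1 lower, in both acupuncture libraries than in every other library.

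With another scaling of the libraries the balance of these calls shifted downward. Quantile normalization gave 1 member higher and 7 lower, and median-of-ratios scaling gave 2 higher and 8 lower, while over all genes the split was 1158 higher and 440 lower with FPKM as deposited, 923 and 721 with quantile normalization, and 1078 and 572 with median-of-ratios scaling. The ICH libraries enter acupuncture against sham through the shared estimate of the spread and the filter on low values. With only these 2 groups in the fit, 13 members were called, and Cplx2, Rims2, Rims3, Syt4, Syt7 and Unc13a joined the 7. Over all genes that fit called 1975 higher and 1161 lower. Leaving out an ICH library cannot change the log2 fold changes of acupuncture against sham, because each group has its own mean. That they stayed the same is therefore no sign of stability.

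Another 4 lower members lay just short of the threshold. Syt4 had 32.1 and 30.3 FPKM in acupuncture against 42.3, 38.4 and 42.8 FPKM in sham, a log2 difference of -0.39 (SE 0.10, limma adjusted p = 0.0506). Cplx2, the complexin of many excitatory synapses, had 176 and 153 FPKM in acupuncture against 225, 235 and 210 FPKM in sham, a log2 difference of -0.44 (SE 0.11, limma adjusted p = 0.0508). Unc13a, the main Munc13 of forebrain synapses, had 17.6 and 17.7 FPKM in acupuncture against 23.6, 28.8 and 23.6 FPKM in sham, a log2 difference of -0.49 (SE 0.13, limma adjusted p = 0.0513). Rims2 had 6.38 and 6.17 FPKM in acupuncture against 9.39, 9.43 and 8.71 FPKM in sham, a log2 difference of -0.48 (SE 0.12, limma adjusted p = 0.0515). These 4 genes were singled out after their values were seen, and their groups did not overlap. By role, 14 of 15 tested synaptotagmins and 6 of 7 active zone and priming genes lay below 0, with median log2 differences of -0.21 and -0.48. Target membrane SNAREs were split, with 7 above and 7 below 0 and a median of 0.00.

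Of the 5 most abundant members, Cplx2 lay just short of the threshold as given above, and the other 4 had log2 differences between -0.14 and -0.04 in acupuncture against sham. Snap25 had 241 and 217 FPKM in acupuncture against 234, 283 and 227 FPKM in sham, a log2 difference of -0.11 (SE 0.26, limma adjusted p = 0.842). Cplx1 had 241 and 226 FPKM in acupuncture against 253, 268 and 230 FPKM in sham, a log2 difference of -0.10 (SE 0.16, limma adjusted p = 0.772). Syp, a major vesicle membrane protein, had 211 and 194 FPKM in acupuncture against 219, 230 and 222 FPKM in sham, a log2 difference of -0.14 (SE 0.20, limma adjusted p = 0.724). Vamp2, the main synaptic VAMP, had 202 and 222 FPKM in acupuncture against 213, 227 and 217 FPKM in sham, a log2 difference of -0.04 (SE 0.20, limma adjusted p = 0.92). These SEs of 0.16 to 0.26 leave moderate differences of either sign possible. Syt1, the fast calcium sensor of forebrain neurons, had 124 and 132 FPKM in acupuncture against 145, 165 and 144 FPKM in sham, a log2 difference of -0.23 (SE 0.17, limma adjusted p = 0.456). Syt2, the fast sensor of hindbrain synapses, had 7.12 and 4.73 FPKM in acupuncture against 9.54, 8.12 and 8.05 FPKM in sham, a log2 difference of -0.49 (SE 0.25, limma adjusted p = 0.294). Syt9 was thus the only one of the 3 fast calcium sensors past the threshold. The other core members reported here lay between -0.19 (Sv2a) and 0.11 (Sv2b), with Stx1a at -0.09, Syn1 at -0.02 and Syn2 at -0.11, and none of them passed the test. The direction of Stx1a and Syn1 depended on the libraries kept, with log2 differences of -0.27 to 0.10 and -0.07 to 0.06 when 1 library was left out.

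ICH against sham asked what the haemorrhage alone did to these genes, and Vamp8 alone of the 50 members passed the test. That 1 higher member stands beside 4.95% of all genes called higher, and the 0 lower members beside 0.724% called lower. At an unadjusted p under 0.05 there were 9 of 50 members, beside 2936 of 13666 genes. Of the members 16 lay above 0 and 34 below, with a median log2 difference of -0.08, against -0.01 over all genes. The groups did not overlap for 7 members on the higher and 17 on the lower side, beside 21.5% and 18.8% of all genes.

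Several abundant synaptic genes had ICH libraries far apart, while Cplx2, at a similar level, had 201 and 199 FPKM in ICH against 225, 235 and 210 FPKM in sham. Syn1, a synapsin that tethers vesicles to the cytoskeleton, had 129 and 284 FPKM in ICH against 114, 137 and 118 FPKM in sham, a log2 difference of 0.64 (SE 0.30, limma adjusted p = 0.27). Snap25 had 237 and 439 FPKM in ICH against 234, 283 and 227 FPKM in sham, a log2 difference of 0.38 (SE 0.26, limma adjusted p = 0.399). Vamp2 had 202 and 331 FPKM in ICH against 213, 227 and 217 FPKM in sham, a log2 difference of 0.24 (SE 0.20, limma adjusted p = 0.486). ICH replicate 1 lay within the sham range for Syn1 and Snap25 and just below it for Vamp2, while replicate 2 lay above it in all 3 genes. Syp went the other way, with 208 and 129 FPKM in ICH against 219, 230 and 222 FPKM in sham, a log2 difference of -0.45 (SE 0.20, limma adjusted p = 0.246). Rims4 had 15.2 and 5.96 FPKM in ICH against 15.8, 18.7 and 16.9 FPKM in sham, a log2 difference of -0.77 (SE 0.32, limma adjusted p = 0.226). Syn1 and Syp are both vesicle markers, yet they separated in opposite directions in ICH replicate 2. With ICH replicate 2 as the only ICH library, assumed to vary like the other groups, 19 members were called (6 higher and 13 lower), which is 38.0% of the 50 members beside 38.0% of all genes tested in that fit. With ICH replicate 1 as the only one, Vamp8 alone was called, 2.0% of members beside 5.04% of all genes. Timp1, a protease inhibitor gene, lies inside Syn1 on the opposite strand and had 75.8 and 46.0 FPKM in acupuncture, 27.4 and 32.4 FPKM in ICH, and 0.642, 0.189 and 0.311 FPKM in sham. The libraries were stranded per the labels, but whether counting used strand is not stated.

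Among the other members with the smallest p, Syt17, a divergent synaptotagmin, had 7.82 and 9.14 FPKM in ICH against 6.24, 6.44 and 6.66 FPKM in sham, a log2 difference of 0.35 (SE 0.10, limma adjusted p = 0.10). Sv2b had 49.7 and 45.1 FPKM in ICH against 35.1, 44.4 and 36.5 FPKM in sham, a log2 difference of 0.29 (SE 0.13, limma adjusted p = 0.239). Neither gene passed the threshold, although the groups did not overlap. On the lower side Unc13a had 20.3 and 17.0 FPKM in ICH against 23.6, 28.8 and 23.6 FPKM in sham, a log2 difference of -0.42 (SE 0.13, limma adjusted p = 0.125). Rims3 had 21.0 and 12.6 FPKM in ICH against 26.3, 23.2 and 24.8 FPKM in sham, a log2 difference of -0.57 (SE 0.19, limma adjusted p = 0.16). Syt9 had a log2 difference of -0.50 (SE 0.18, limma adjusted p = 0.182). These 3 genes also had groups that did not overlap and did not pass the test. The other core members reported here lay between -0.38 (Cplx1) and 0.24 (Syt1), with Stx1a at -0.33, Sv2a at -0.23, Rims1 at -0.22, Cplx2 at -0.16 and Syn2 at 0.18, and none of them passed the test.

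Acupuncture against ICH asked what the treatment changed in the haemorrhagic brain, and no member passed the test. The counts of 0 higher and 0 lower members by limma stand beside 0.0366% and 0.0% of all genes called, and 11 of 50 members, beside 2754 of 13666 genes, had an unadjusted p under 0.05. Of the members 22 lay above 0 and 28 below, with a median log2 difference of -0.06, against 0.05 over all genes. The groups did not overlap for 8 members on the higher and 15 on the lower side, beside 28.8% and 20.7% of all genes.

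Unc13c had the largest difference, -1.31 on the log2 scale (SE 0.22, limma adjusted p = 0.125), with 2.40 and 1.23 FPKM in acupuncture against 5.26 and 6.49 FPKM in ICH. Rims2 differed by -0.43 (SE 0.14, limma adjusted p = 0.206), with 6.38 and 6.17 FPKM in acupuncture against 7.62 and 10.2 FPKM in ICH. Rims1 differed by -0.47 (SE 0.17, limma adjusted p = 0.224). Each of these 3 genes was lower in both acupuncture libraries than in both ICH libraries. On the higher side Stx5a, a syntaxin of the Golgi, had 8.99 and 9.19 FPKM in acupuncture against 6.87 and 3.99 FPKM in ICH, a log2 difference of 0.69 (SE 0.20, limma adjusted p = 0.197). Vamp3 differed by 0.35 (SE 0.09, limma adjusted p = 0.188) and Stx2 by 0.31 (SE 0.09, limma adjusted p = 0.199). All 7 tested members of the list of broad or immune-cell SNARE and priming genes (Stx2, Stx3, Stx4a, Stx7, Stx8, Vamp3 and Vamp8) lay above 0, with a median of 0.29, and 0 of the 7 passed the test, with 3 at an unadjusted p under 0.05. Over all genes 7654 of 13666 lay above 0, and Stx8 stood at 0.02. In ICH against sham 3 of the 7 lay above 0 and 4 below. Against sham, Stx3, Stx4a and Stx7 stood at -0.23, -0.34 and -0.09 in ICH. In acupuncture against sham they stood at 0.003, -0.05 and -0.0009. With ICH replicate 2 as the only ICH library 22 members were called, 12 higher and 10 lower, 44.0% of members beside 37.3% of all genes in that fit. With ICH replicate 1 as the only one limma called 0 members, beside 0.0514% of all genes. The core members in which the 2 ICH libraries differed by over 0.5 on the log2 scale were Syn1 at -0.65 (SE 0.33, limma adjusted p = 0.288), Snap25 at -0.49 (SE 0.28, limma adjusted p = 0.325), Syt1 at -0.47 (SE 0.19, limma adjusted p = 0.236), Vamp2 at -0.29 (SE 0.22, limma adjusted p = 0.444) and Syp at 0.30 (SE 0.22, limma adjusted p = 0.41). Of the others, Syn2 stood at -0.30, Cplx2 at -0.28, Sv2b at -0.18, Unc13a at -0.07, Sv2a at 0.04, Stx1a at 0.25 and Cplx1 at 0.28, and none of them passed the test. Sv2a lay at -0.08 under quantile normalization and at -0.0032 under median-of-ratios scaling, so its direction was not settled.

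**Figure D3:**
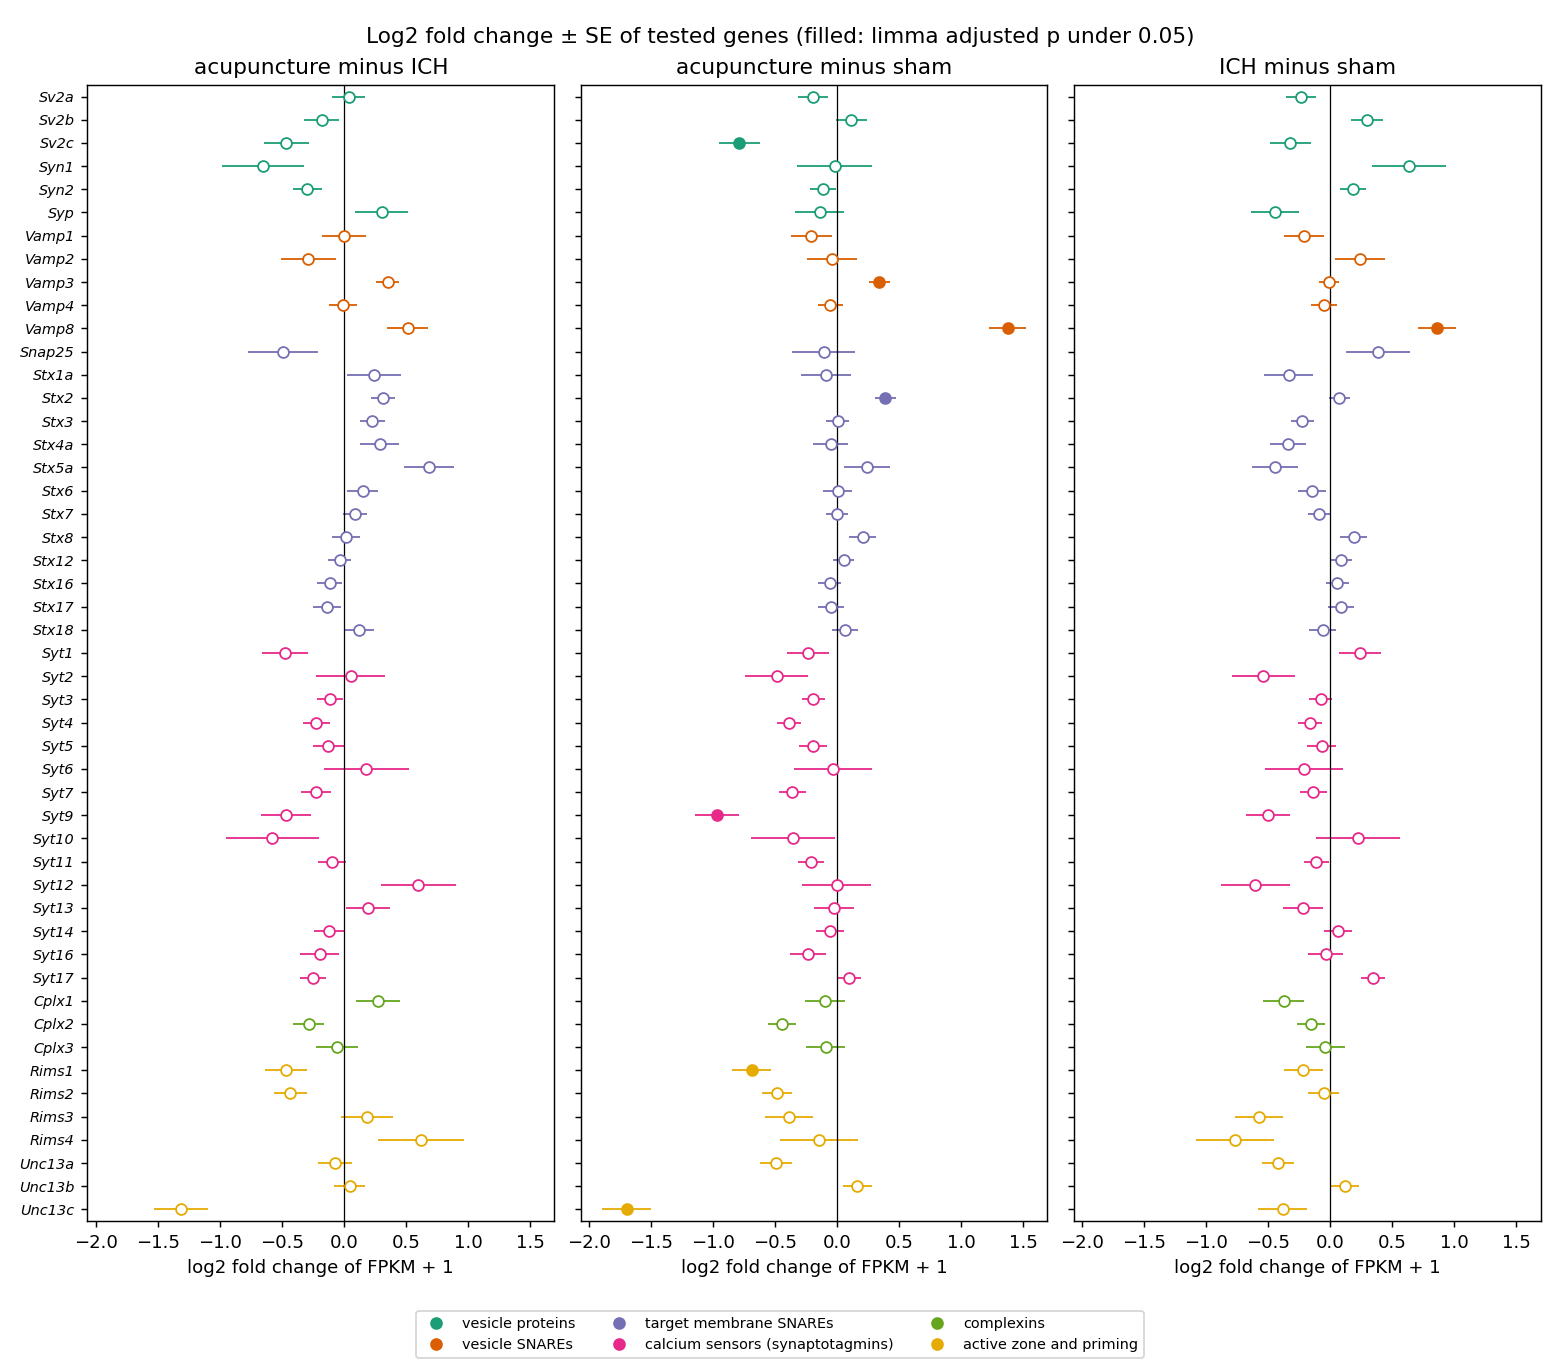
Log2 fold change ± SE of 49 tested genes in 3 comparisons, the first named group over the second, coloured by role, with filled points past the limma threshold. Filled points are Vamp8, Stx2, Vamp3, Unc13c, Syt9, Sv2c and Rims1 in acupuncture against sham, Vamp8 also in ICH against sham, and none in acupuncture against ICH.

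The 9 members under the filter were mostly low in every library. Vamp5, a VAMP first known from muscle, had 1.37 and 1.60 FPKM in acupuncture, 0.744 and 0.688 FPKM in ICH, and 0.463, 0.540 and 0.519 FPKM in sham. Stx11, a syntaxin of cytotoxic lymphocytes and other immune cells, had 0.686 and 0.531 FPKM in acupuncture, 0.301 and 0.384 FPKM in ICH, and 0.0422, 0.0529 and 0.0777 FPKM in sham. In both genes acupuncture lay above ICH and ICH above sham without overlap. In the fit with no filter, both were called higher in acupuncture against sham, with limma adjusted p of 0.0165 for Vamp5 and 0.00784 for Stx11, where a constant pseudocount of 1 shrinks such low values. Over all genes that fit called 1255 higher and 321 lower, and the calls of Rims1, Sv2c and Syt9 were lost in it. Syt8 was also called there (limma adjusted p = 0.0198), with 0.113 and 0.179 FPKM in acupuncture and a listed 0 in all ICH and sham libraries. Unc13d, the Munc13 of cytotoxic granules, had 0.522 and 0.506 FPKM in acupuncture, 0.261 and 0.564 FPKM in ICH, and 0.179, 0.320 and 0.179 FPKM in sham. Its groups overlapped between acupuncture and ICH. Syn3 went the other way, with 0.356 and 0.477 FPKM in acupuncture, below both ICH libraries (0.692 and 0.816 FPKM). All sham libraries of Syn3 (0.684, 0.621 and 0.532 FPKM) also lay above acupuncture. Vamp9 was lower in acupuncture (0.0759 and 0.109 FPKM) than in ICH (0.193 and 0.183 FPKM), and its acupuncture and sham libraries overlapped. Neither Syn3 nor Vamp9 was called in the fit with no filter.

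Another 63 tested genes of vesicle fusion and recycling outside the families above gave 2 higher and 3 lower calls in acupuncture against sham, beside 8.47% and 3.22% of all genes, and by limma 0 in either direction in acupuncture against ICH, where 15 had an unadjusted p under 0.05, or in ICH against sham, where 10 had. Snap23, the broadly expressed relative of Snap25, averaged 4.64 ± 0.147 FPKM in acupuncture and 2.72 ± 0.427 FPKM in sham (SD, n = 2 and 3), a log2 difference of 0.61 (limma adjusted p = 0.0269). Stxbp2, a Munc18 protein of granule-secreting cells, averaged 12.1 ± 0.43 FPKM in acupuncture and 8.52 ± 0.43 FPKM in sham, a log2 difference of 0.46 (limma adjusted p = 0.0173). Slc17a6, a vesicular glutamate transporter that is also one of the thalamic markers, averaged 2.96 ± 0.467 FPKM in acupuncture and 12.6 ± 4.02 FPKM in sham, a log2 difference of -1.74 (limma adjusted p = 0.00915). Doc2b, a calcium sensor of vesicle release, averaged 3.80 ± 1.72 FPKM in acupuncture and 10.2 ± 1.78 FPKM in sham, a log2 difference of -1.26 (limma adjusted p = 0.0203). Rab3c, a GTPase of synaptic vesicles, averaged 15.6 ± 0.213 FPKM in acupuncture and 33.8 ± 3.99 FPKM in sham, a log2 difference of -1.06 (limma adjusted p = 0.00299). Of these 63 genes 18 lay above 0 and 45 below in acupuncture against sham, with a median log2 difference of -0.13, while of all 13666 genes 7630 lay above 0 and 6036 below, with a median of 0.04.

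m6A peaks were described from the authors' lists, 1 per group, which give each peak's log2 of IP over input and no value per sample, so groups could not be tested against each other. Which libraries entered each list is not stated. Release machinery genes held 201 peaks in acupuncture, 206 in ICH and 185 in sham, in 54, 55 and 52 genes. A peak was listed in all 3 groups for 52 members, and 4 members (Cplx4, Stx19, Syt8 and Vamp9), all under the filter on RNA level, had none. Stx11 and Unc13d had 1 peak each in acupuncture and ICH and none in sham, and Syt15 had 2 peaks in ICH only. These 3 genes were also low in RNA. The authors' median log2 IP over input of members' peaks was 1.02 in acupuncture, 1.18 in ICH and 0.94 in sham, and over all peaks 1.12, 1.24 and 1.07. Of members' peaks 59.2%, 60.7% and 64.3% were assigned to 3′ UTRs, against 54.7%, 52.3% and 54.5% of all peaks in the same order of acupuncture, ICH and sham.

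The highest member peak in every list was the 3′ UTR peak of Vamp5 (GRCm38 chromosome 6, from 72368844 to 72370491 in acupuncture, 72370416 in ICH and 72370466 in sham). In the authors' deposited lists its log2 IP over input was 4.84 in acupuncture, 5.39 in ICH and 5.31 in sham. An exonic peak of Unc13b, a Munc13 isoform, had 3.89 in acupuncture, 4.06 in ICH and 4.03 in sham. A 3′ UTR peak of Vamp1, a VAMP of fast spinal and brainstem synapses, had 3.96 in acupuncture, 3.75 in ICH and 3.71 in sham. The highest peak of Syt14 had 3.67 in acupuncture, 3.83 in ICH and 3.89 in sham. The highest peak of Syt2 had 3.96 in acupuncture, 3.17 in ICH and 2.94 in sham. The highest peak of Stx8 had 3.68, 3.31 and 3.11 and that of Stx5a 3.13, 3.35 and 2.83 in acupuncture, ICH and sham. Several of these genes were low in RNA. Vamp5, Unc13b, Syt14 and Stx8 averaged 0.847, 2.17, 1.46 and 2.01 FPKM over the 7 input libraries. Vamp1, Syt2 and Stx5a averaged 14.1, 7.03 and 7.38 FPKM. The 5 most abundant members had lower peaks, the highest in acupuncture, ICH and sham being 0.926, 1.17 and 1.29 for Snap25, 1.38, 1.99 and 1.22 for Vamp2, and 1.34, 1.87 and 1.15 for Cplx1. They were 1.09, 1.60 and 1.12 for Syp and 1.43, 1.84 and 1.43 for Cplx2, and that of Syn1 was 0.999, 1.04 and 1.08. Peak numbers ranged from 1 per group in Syn1 and Syt10 to 8, 9 and 10 in Unc13a in acupuncture, ICH and sham.

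Positions were largely shared between lists, which differ in length. Of members' acupuncture peaks 85.6% overlapped an ICH peak of the same gene by at least 1 bp, and 82.5% of ICH peaks overlapped an acupuncture peak. Of members' acupuncture peaks 75.1% overlapped a sham peak, and 78.9% of sham peaks overlapped an acupuncture peak. Of members' ICH peaks 73.3% overlapped a sham peak, and 81.6% of sham peaks overlapped an ICH peak. Over all peaks of the lists these 6 shares lay between 70.7% and 82.3%. Peak spans can include introns, and 79, 84 and 70 of members' peaks in acupuncture, ICH and sham spanned over 1000 bp.

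**Figure D4:**
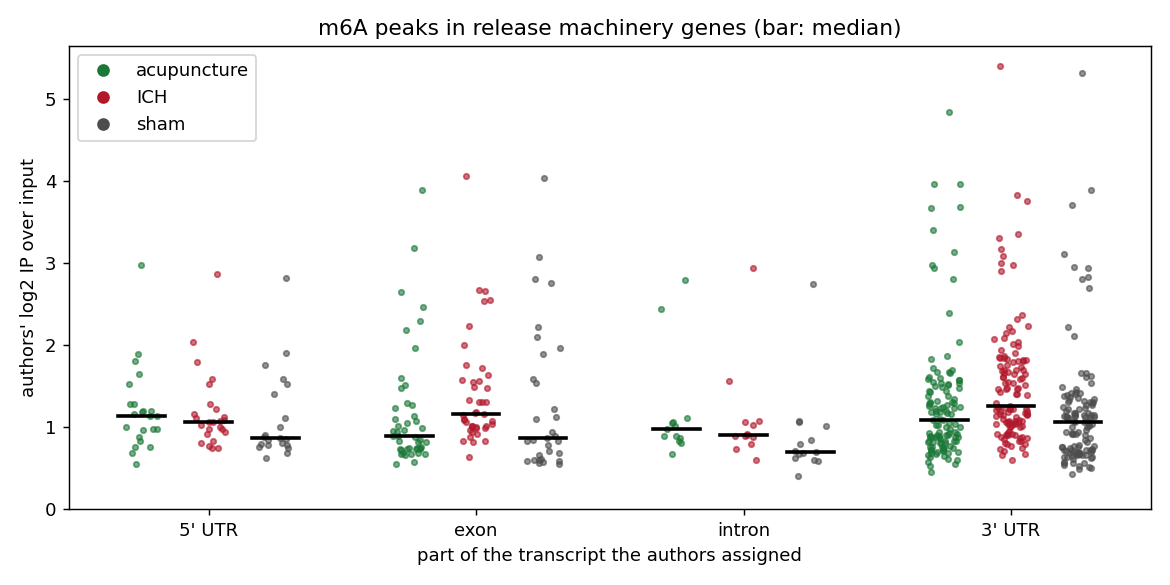
The authors' log2 IP over input of every m6A peak listed in release machinery genes, by group (acupuncture, ICH, sham) and by the part of the transcript assigned, 1 point per peak, with bars at the median. Most peaks lie between 0.5 and 2, and the 3′ UTR peak of Vamp5 lies highest in each group.

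The authors' deposited differential tables compare the groups peak by peak. In acupuncture against ICH they called 11 members' peaks higher and 84 lower at the authors' adjusted p under 0.05, so that 88.4% of the called peaks were lower. Over all genes 84.4% of called peaks were lower, and of all peaks listed with a p 11.6% were called higher and 62.4% lower. In ICH against sham they called 89 members' peaks higher and 23 lower, 79.5% higher, and over all genes the share was also 79.5% (69.9% of listed peaks higher and 18.0% lower). In acupuncture against sham 43 members' peaks were called higher and 24 lower, 64.2% higher, against 59.0% over all genes (37.7% of listed peaks higher and 26.2% lower). The members' balance of directions was thus close to that of all peaks in each table. The 3 tables share their groups, so their directions are not independent.

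By role, target membrane SNAREs had 0 peaks higher and 25 lower in acupuncture against ICH, and 30 higher and 3 lower in ICH against sham, in the authors' deposited tables. Complexins had 0 higher and 6 lower in acupuncture against ICH, and 5 higher and 0 lower in ICH against sham. Synaptotagmins had 7 higher and 19 lower in acupuncture against ICH, and 19 higher and 9 lower in ICH against sham. Vesicle proteins had 2 higher and 11 lower in acupuncture against ICH, and 12 higher and 4 lower in ICH against sham. Active zone and priming genes had 2 higher and 15 lower in acupuncture against ICH, and 16 higher and 6 lower in ICH against sham, and vesicle SNAREs 0 and 8, and 7 and 1. Differences between roles were not tested. Within single genes the called peaks pointed in both directions in 9 of 41 members with a called peak in acupuncture against sham (22.0%), 7 of 48 in acupuncture against ICH (14.6%) and 15 of 49 in ICH against sham (30.6%). Over all genes with a called peak the counts were 998 of 7668, 916 of 9872 (9.28%) and 1754 of 11488 (15.3%). Members had 1.63, 1.98 and 2.29 called peaks per gene in the same order, and all genes 1.43, 1.57 and 1.77, and the part of peak number in the shares was not tested.

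The single 3′ UTR peak of Syn1 went against the majority. In the authors' deposited table its log2 IP over input (chromosome X, 20860511 to 20860710, minus strand) was 0.98 in acupuncture and 0.51 in ICH, a difference of 0.48 (authors' adjusted p = 3.84e-59). It was 0.51 in ICH and 1.40 in sham, a difference of -0.89 (authors' adjusted p = 1.56e-186). Over a longer span it was 0.72 in acupuncture and 1.25 in sham, a difference of -0.53 (authors' adjusted p = 1.13e-70). In the authors' peak list of each group, by contrast, the single Syn1 peak had 0.999 in acupuncture, 1.04 in ICH and 1.08 in sham. The lists thus showed almost no difference, and the reason for this disagreement was not tested. The RNA level of Syn1 was 129 and 284 FPKM in the ICH input libraries, and the part of ICH replicate 2 in the peak's value was not tested.

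The largest difference of a member in acupuncture against ICH was that of the 3′ UTR peak of Unc13d, 1.08 in acupuncture and 3.10 in ICH in the authors' deposited table, a difference of -2.02 (authors' adjusted p = 0.00372). An overlapping Unc13d peak had 2.93 in ICH and 1.0 in sham, a difference of 1.93 (authors' adjusted p = 0.0209), in a gene under 0.6 FPKM in every library. Further lower peaks in acupuncture against ICH in the authors' deposited table were those of Syt15 (-1.34), Sv2c (-1.32), Stx3 (-1.05) and Syt14 (-1.04), and higher ones those of Syt14 (1.06), Syt2 (0.99), Syn3 (0.54) and Syt6 (0.46). Syt14 thus had 1 peak higher and another lower, at different places in the gene. In ICH against sham the authors' deposited table had higher peaks in Stx7 (1.60), Syt14 (1.5), Sv2a (1.40) and Vamp3 (1.30), and lower ones in Stx5a (-1.95), Rims2 (-1.45), Unc13c (-0.91) and Rims1 (-0.81).

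In acupuncture against sham the largest difference in the authors' deposited table was that of the same 3′ UTR region of Syt14, 1.57 in acupuncture and -0.66 in sham, a difference of 2.24 (authors' adjusted p = 1.91e-09). The RNA level of Syt14 was low, between 1.26 and 1.64 FPKM in every input library. Higher peaks followed in Stx3 (1.67), Stx8 (1.32) and Syt2, which had 2 among the 5 largest (1.11 and 1.07) and 4 called peaks, all higher. The largest lower peak was an exonic one of Syp, -0.80 in acupuncture and 0.95 in sham, a difference of -1.75 (authors' adjusted p = 0.0398). Lower peaks followed in Syt17 (-0.70), Sv2a (-0.54) and Syt9 (-0.51). In the 7 members whose RNA differed in this comparison, the called peaks of the authors' deposited table were 1 lower in Unc13c, Syt9 and Rims1 each, 2 higher in Sv2c and 1 higher in Vamp3. Vamp8 and Stx2 had none. In acupuncture against ICH the 3′ UTR peak of Vamp8 was lower by 0.30 in the authors' deposited table, and in Vamp5 the peak was lower by 0.53.

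**Figure D5:**
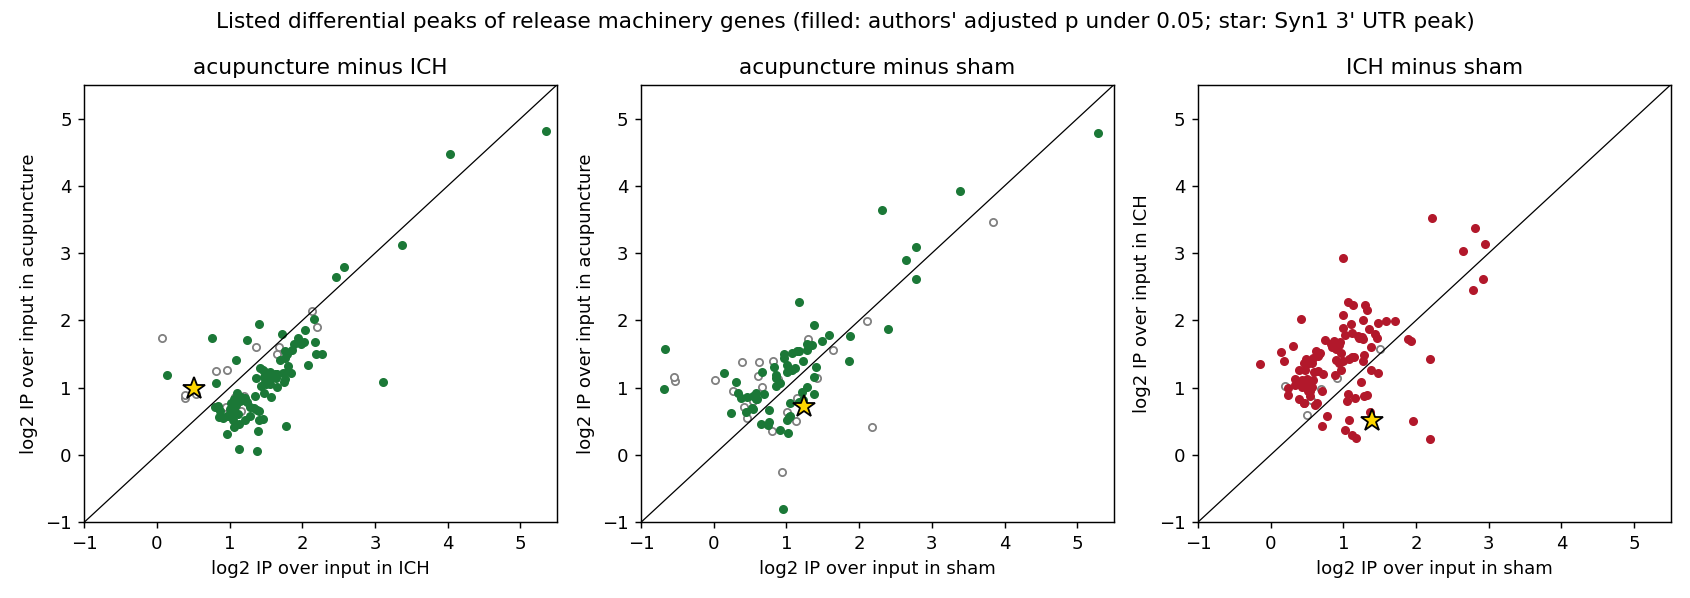
Members' peaks in the authors' differential tables, with log2 IP over input of the second named group on the horizontal axis and of the first on the vertical axis, filled where the authors' adjusted p is under 0.05, and a star for the 3′ UTR peak of Syn1. Most points lie below the diagonal in acupuncture against ICH (84 of 95 called) and above it in ICH against sham (89 of 112 called), and Syn1 lies on the other side in both.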

How the data were processed

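The authors deposited gene levels as FPKM for input libraries, named so per the file headers. They also deposited 1 m6A peak list per group and 1 differential table per pair of groups, with log2 IP over input and their own p-values and adjusted p-values, per the file headers. Tools in the submitters' processing notes are HISAT2, StringTie, fastp, HOMER and edgeR, with no roles, and the build there is human. The files hold mouse Ensembl identifiers, and 58 of 59 members lay within 1000 bp of RefSeq GRCm38 coordinates, which are therefore used. No source used here names the peak caller. Columns headed control and EA were matched to sham and acupuncture by elimination, and 2 FPKM columns that match no sample were not used.

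A linear model with 1 mean for each group was fitted with limma 3.58.1 in R 4.3.3 to log2(FPKM + 1) of the 7 input libraries, with a mean-variance trend and a filter of a mean of at least 1 FPKM. The fit was first tested on simulated data in which 200 of 13666 genes were changed. A log2 change of 1 was recovered in 60% of them for ICH against sham. The share was 66% for acupuncture against ICH and 72% for acupuncture against sham. For a log2 change of 2 it was 94.5%, 92% and 92% in the same order. Smaller changes were not simulated, so a gene that did not pass may still differ. Depth is unknown, so no counting interval is given.

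Members and lists were chosen with earlier results of these data known. Values of 1 member, included in the counts, are not reported here. Genes named with full values were called members, a core synaptic set, the 3 smallest p per direction where fewer than 3 were called, the 5 highest or most different peaks per list, and called genes of the lists. Alternatives changed the pseudocount, filter, scaling, variance trend, replicate block, groups in the fit, overlap and peak thresholds, or dropped each library in turn. Tables were made in Python 3.11.15 with pandas 2.3.3 and figures with matplotlib 3.10.9.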

Additional observations from a re-analysis of the deposited data

How the results depend on the processing

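With 2 or 3 libraries per group, unknown depth and 1 value per peak and group, small differences could not be resolved. In ICH against sham the call of Vamp8 was lost (0 members higher) with no filter, with a mean of at least 5 FPKM, which leaves Vamp8 untested, with the replicate block and with only 2 groups in the fit. In acupuncture against sham, where 3 members were higher and 4 lower, no filter gave 6 and 1, beside 1255 and 321 over all genes. The calls of Rims1, Sv2c and Syt9 were lost with no filter. Quantile normalization gave 1 member higher and 7 lower. Median-of-ratios scaling gave 8 lower, only 2 groups in the fit gave 10 lower, and a mean of at least 5 FPKM gave 1 higher. Under the replicate block 1 member was higher (Vamp8) and 1 lower (Unc13c). Same-numbered libraries correlated at -0.015 to 0.094 in their deviations from the group means. In a group of 2 libraries these deviations mirror each other, so they cannot settle whether replicate numbers mark a pairing.

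Over all genes, a mean of at least 5 FPKM gave 215 higher and 35 lower calls in ICH against sham and 457 and 250 in acupuncture against sham. The replicate block gave 325 and 26 in ICH against sham, 3 higher in acupuncture against ICH, and 647 and 103 in acupuncture against sham. With only 2 groups in the fit there were 2 higher in acupuncture against ICH, and 1975 and 1161 in acupuncture against sham. No filter gave 54 lower in ICH against sham, quantile normalization gave 721 lower in acupuncture against sham, and pseudocounts of 0.1 and 0.5 and no filter each gave 1 lower in acupuncture against ICH.

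When 1 library was left out, members called in acupuncture against sham ranged from 1 to 3 higher and 1 to 10 lower, in acupuncture against ICH from 0 to 12 higher and 0 to 10 lower, and in ICH against sham from 0 to 6 higher and 0 to 13 lower. Over all genes the ranges were 614 to 2022 higher and 136 to 1175 lower in acupuncture against sham, 2 to 3140 and 0 to 1958 in acupuncture against ICH, and 369 to 2489 and 18 to 2715 in ICH against sham. The cause of these shifts was not tested. Among the genes reported here, log2 differences that changed sign when 1 library was left out were those of Sv2a (-0.0905 to 0.17), Syp (-0.04 to 0.65), Unc13a (-0.19 to 0.0486) and Vamp2 (-0.64 to 0.0659) in acupuncture against ICH. In acupuncture against sham they were those of Stx1a (-0.27 to 0.10), Syn1 (-0.0696 to 0.0567) and Vamp2 (-0.11 to 0.0216), and in ICH against sham those of Snap25 (-0.0607 to 0.83), Syt1 (-0.0232 to 0.50) and Vamp2 (-0.11 to 0.60). Sv2a in acupuncture against ICH also turned to -0.0811 under quantile normalization and -0.0032 under median-of-ratios scaling.

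A log2 IP over input of at least 1 left 104 of 201 members' peaks in acupuncture, 152 of 206 in ICH and 90 of 185 in sham. The median over all peaks was also highest in ICH, at 1.24 beside 1.12 in acupuncture and 1.07 in sham. A difference of at least 1 left 1 peak higher and 5 lower in acupuncture against ICH, 10 and 2 in ICH against sham, and 5 and 1 in acupuncture against sham. These were 6 of 95, 12 of 112 and 6 of 67 called peaks of members. Over all genes they were 2991 of 15457, 4604 of 20313 and 2681 of 10974 in the same order, a larger share each time. With the authors' p under 0.05 in place of the adjusted p, 18 members' peaks were higher in acupuncture against ICH.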
